A study of Mus musculus with 32 samples.

Results

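The genes described here are 4 HOXA cluster genes (Hoxa5, Hoxa7, Hoxa9 and Hoxa10), Meis1, Pbx2 and Pbx3. They were taken by symbol from 4 deposited tables of mouse read counts. All 7 were present in every table, among 21509 gene names that the tables share. The 32 libraries fall into 10 groups. Among sorted ex vivo MLL-AF9 leukaemia cells from moribund mice, 3 libraries came from PRDM16-knockout cells given s-PRDM16 (KO+s) and 3 from knockout cells given f-PRDM16 (KO+f). Knockout cells with the empty vector (KO+EV) and wild-type cells with the empty vector (WT+EV) gave 3 libraries each. Every leukaemia group carries MLL-AF9. The Lin-cKit+Sca1+CD48- fraction, labelled as sorted haematopoietic stem cells (HSCs), came from adult bone marrow with 4 PRDM16-knockout and 4 wild-type libraries. The same fraction came from fetal liver with 3 total-knockout and 3 wild-type libraries. A further fetal liver table, marked 47bp, held 3 libraries that lack f-PRDM16 and keep s-PRDM16, and 3 wild-type libraries of their own. The column names of the first 2 HSC tables carry VAV, which the labels do not spell out, and ages beyond adult and fetal are not given in the sources used here.

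HOXA proteins are homeodomain transcription factors that set body position in the embryo and sustain self-renewal in early blood cells, where the genes around Hoxa9 are most active and are shut off as cells mature. MEIS and PBX proteins belong to the TALE class of homeodomain factors, bind DNA together with HOX proteins and sharpen their choice of site. MLL fusion proteins such as MLL-AF9 keep Hoxa9, Hoxa10 and Meis1 switched on, and Hoxa9 with Meis1 is enough to transform mouse myeloid progenitors. PRDM16 is a zinc-finger regulator of HSCs. Its full-length form (f-PRDM16) has a PR domain that the short form (s-PRDM16) lacks, and a count over the whole gene cannot tell these forms apart.

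Promoter sequences in the RefSeq table of build GRCm38.p6 matched 6 of the 7 genes, with 7 starts because Hoxa10 has 2. The 250 bases upstream of the start are printed for Pbx2, 1 of the members with passing changes below, and for Hoxa9 and Meis1, the pair at the centre of MLL-AF9 leukaemia. They are given 5′ to 3′ on the gene's strand, and capitals mark each CG dinucleotide.
Pbx2: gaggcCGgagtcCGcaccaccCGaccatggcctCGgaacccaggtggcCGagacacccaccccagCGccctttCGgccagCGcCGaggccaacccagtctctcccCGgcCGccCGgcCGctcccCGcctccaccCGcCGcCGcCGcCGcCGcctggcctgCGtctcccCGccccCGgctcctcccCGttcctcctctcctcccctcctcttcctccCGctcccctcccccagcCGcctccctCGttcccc
Hoxa9: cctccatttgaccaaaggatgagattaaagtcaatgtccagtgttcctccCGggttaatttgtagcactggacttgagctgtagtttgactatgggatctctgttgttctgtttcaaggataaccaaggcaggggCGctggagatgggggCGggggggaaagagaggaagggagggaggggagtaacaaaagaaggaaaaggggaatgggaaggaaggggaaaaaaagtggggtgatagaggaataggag
Meis1: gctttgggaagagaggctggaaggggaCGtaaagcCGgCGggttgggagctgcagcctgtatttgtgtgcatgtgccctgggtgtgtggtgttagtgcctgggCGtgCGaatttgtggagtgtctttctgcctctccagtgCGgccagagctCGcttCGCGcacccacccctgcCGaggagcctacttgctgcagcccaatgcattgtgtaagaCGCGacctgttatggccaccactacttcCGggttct
The Pbx2 stretch lies at chr17:34592009-34592258 on the plus strand, the Hoxa9 stretch at chr6:52227371-52227620 on the minus strand and the Meis1 stretch at chr11:19018970-19019219 on the minus strand. Pbx2 holds 27 CG dinucleotides, Meis1 holds 13 and Hoxa9 holds 3, against a median of 6 over all 32851 promoters in the table. Hoxa5 holds 28, Hoxa7 holds 7, and the Hoxa10 starts hold 20 and 7. The core MEIS motif TGACAG, on either strand, was in 0 of the 7 upstream stretches and in 15.9% of all promoters. The PBX-HOX motif TGATTNAT was also in 0 of the 7, and in 2.82% of all promoters. A CCAAT box on either strand was in 3 of the 7, upstream of Hoxa5, Hoxa10 and Meis1, against 33.8% of all promoters. These counts describe letters in a short window and say nothing about binding.

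Library depth was 16353584 to 23785307 counts in leukaemia, 22490805 to 29343602 in bone marrow, 26715538 to 33246080 in the total-knockout fetal table and 35503288 to 44952448 in the f-PRDM16-knockout table. Prdm16 itself had 0, 2 and 1 reads in KO+EV libraries and 17, 14 and 9 reads in WT+EV libraries, a ratio of CPM (a gene's count scaled to a common library total) of 0.0702 with an exact 95% counting interval of 0.0139 to 0.221. It stood at 179 to 295 CPM in KO+s and 242 to 335 CPM in KO+f libraries, far above the 0.429 to 1.04 CPM of WT+EV. In bone marrow Prdm16 was 13.4 to 41.3 CPM in KO and 10.4 to 53.4 CPM in WT libraries, so counts over the whole gene did not mark the knockout there. In fetal liver Prdm16 was 10.8 to 24.6 CPM in total-knockout and 25.5 to 39.8 CPM in WT libraries, a log2 change of -0.77 ± 0.33 that did not pass (adjusted p near 1) and of -0.82 ± 0.13 with the replicate number as a block (adjusted p = 0.0302). In the f-PRDM16-knockout table it was 6.29 to 9.81 CPM in KO and 13.3 to 34.7 CPM in WT libraries. The log2 change there was -1.45 ± 0.36 (adjusted p = 0.999) and -1.39 ± 0.19 with the block (adjusted p = 0.114), passing in neither fit. Reads of the gene therefore remained in both fetal knockouts, and the table labelled total knockout kept more than 10 CPM in every KO library. Of 9 HSC markers, all were detected in every sorted HSC library. KO+EV library 3 stood apart, with 31238 CPM of the granule enzyme Mpo against 1005 to 8827 CPM in the other leukaemia libraries. It was also the lowest leukaemia library for Hoxa5, Hoxa9, Meis1 and Pbx2. In bulk samples such as these, fewer cells of a type and less RNA per cell cannot be told apart.

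Across the 10 groups, Hoxa5, Hoxa9, Hoxa10, Pbx2 and, outside KO+s, Pbx3 were highest in leukaemia, while Meis1 was highest in bone marrow HSCs. Hoxa7 differed less between groups, with means from 20.9 CPM in total-knockout fetal liver HSCs to 45.7 CPM in KO+f cells. The tables were deposited separately, and the HSC libraries had a low-input preparation step per the labels, so these levels are a description with no test. Hoxa9, the leading HOX gene of myeloid leukaemia, averaged 176 ± 16.7 CPM in KO+s, 217 ± 20.4 in KO+f, 218 ± 60.0 in KO+EV and 240 ± 26.4 in WT+EV cells (SD, n = 3 each). In bone marrow it averaged 102 ± 11.6 CPM in KO and 122 ± 33.1 CPM in WT HSCs (SD, n = 4 each). Fetal liver values were 29.7 ± 2.38 CPM in total-KO and 33.9 ± 0.845 CPM in WT HSCs, and 54.7 ± 14.9 CPM in f-PRDM16-KO and 78.9 ± 16.2 CPM in their WT HSCs (SD, n = 3 each). The order therefore ran from leukaemia to bone marrow to fetal liver. Neighbouring groups in it overlapped, apart from gaps between KO+f and KO+s, between the f-PRDM16-KO and the other fetal WT group, and between total-KO and WT fetal liver. The gene Cdkn2d took 5.37 to 5.74% of all counts in libraries of the total-knockout fetal table. It took at most 0.0011% in any library of the other tables. The reason was not tested, and levels in that table compare less directly with the rest.

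Hoxa5, a more anterior gene of the cluster, followed the same order. It averaged 93.2 to 160 CPM in the 4 leukaemia groups, 16.6 CPM in KO and 24.9 CPM in WT bone marrow, and 4.13 to 6.86 CPM in the 4 fetal groups. The lowest leukaemia library, at 59.7 CPM, was above every HSC library. Hoxa10, a neighbour of Hoxa9 with a similar role in myeloid cells, did so too, at 160 to 253 CPM in leukaemia, 75.9 CPM in KO and 73.9 CPM in WT marrow, and 16.7 to 27.0 CPM in fetal liver. Hoxa7 group means ran from 20.9 to 45.7 CPM, and every neighbouring pair in its order overlapped.

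**Figure D1:**
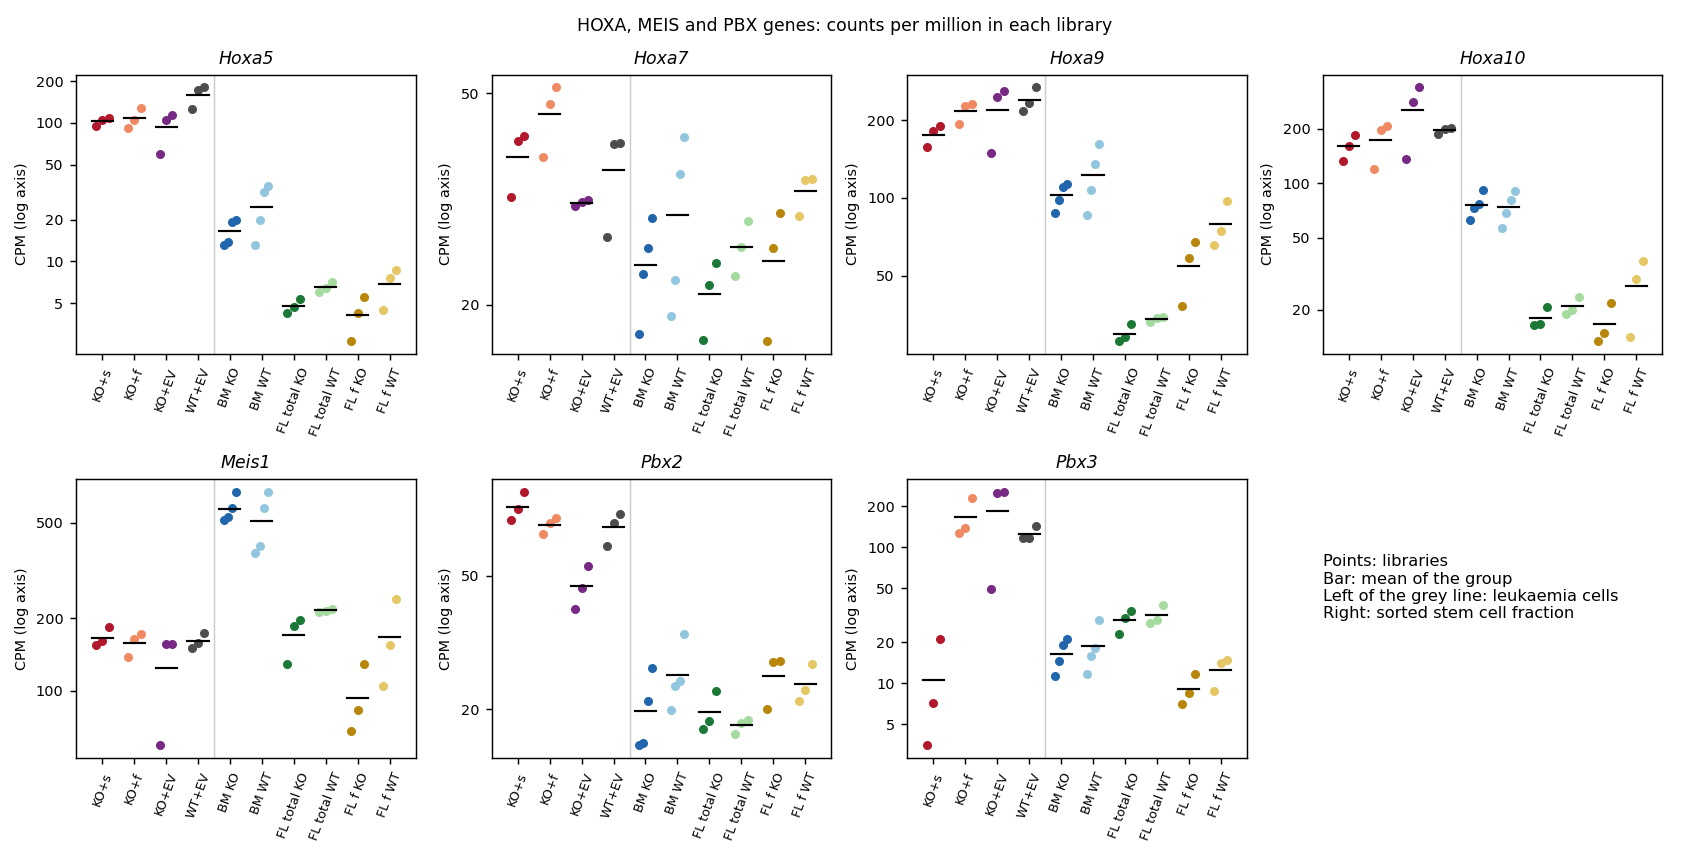
CPM (log axis) of the 7 genes in each of the 32 libraries; points are libraries, bars are group means, leukaemia groups stand left of the grey line and HSC groups right of it. Pbx3 in KO+s libraries sits between 3.51 and 21.0 CPM, below all other leukaemia libraries, and Meis1 is highest in bone marrow.

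Within the HOXA cluster, levels per exon length (CPM per kilobase of exon) were similar for Hoxa5, Hoxa9 and Hoxa10 in leukaemia cells and lower for Hoxa7, at 12.5 to 18.4 over the 4 groups. Hoxa9 averaged 54.5 in KO+s, 67.3 in KO+f, 67.6 in KO+EV and 74.2 in WT+EV cells, and Hoxa5 averaged 54.7, 57.5, 49.6 and 85.3 in the same order of groups. Hoxa6, which lies between Hoxa5 and Hoxa7, averaged 27.1 in KO+s, 32.3 in KO+f, 26.8 in KO+EV and 49.8 in WT+EV cells. Hoxa13 at the far end was at or near 0 in every group, with 0.0476 CPM as its highest library in KO+EV. Hoxa11 varied between libraries of the same group, at 1.47 to 58.0 CPM in KO+EV, and had 0 reads in all bone marrow libraries. The members took 83.7 to 85.2% of all HOXA counts in KO+s, 82.7 to 84.1% in KO+f 84.5 to 89.8% in KO+EV and 83.3 to 86.5% in WT+EV libraries. Strand use in counting is not given, and antisense and overlapping transcripts lie across Hoxa5 to Hoxa7 and within Hoxa9, so reads of those partners cannot be separated.

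**Figure D2:**
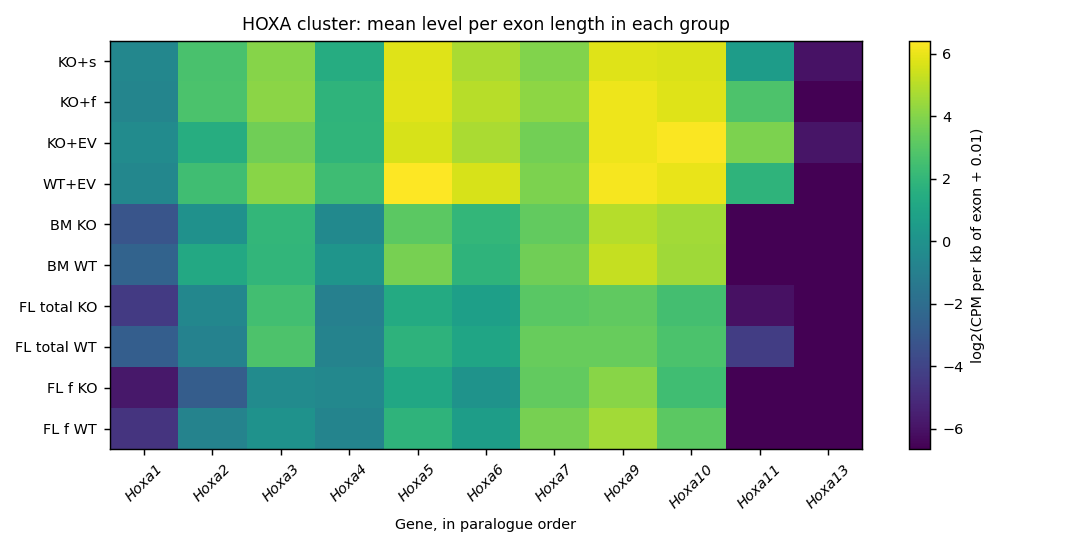
Mean level per exon length of the HOXA genes in the 10 groups, as log2 of CPM per kilobase of exon plus 0.01; rows are groups and columns are genes in paralogue order. Hoxa5, Hoxa9 and Hoxa10 are brightest in the leukaemia rows, and Hoxa11 and Hoxa13 are darkest in the HSC rows.

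Meis1 differed from the HOXA order in the place of leukaemia, while bone marrow again lay above fetal liver. It averaged 572 ± 70.9 CPM in KO and 507 ± 143 CPM in WT bone marrow HSCs (SD, n = 4 each), where it lay above 98.3% of the shared genes in every library. Fetal liver averages were 170 ± 35.9 CPM in total-KO and 216 ± 2.88 CPM in WT HSCs, and 93.2 ± 31.9 CPM in f-PRDM16-KO and 167 ± 69.5 CPM in their WT HSCs. Leukaemia means were 166 CPM in KO+s, 158 in KO+f, 124 in KO+EV and 161 in WT+EV cells. Bone marrow stood apart from all other groups, and the remaining order overlapped from library to library, except that the WT libraries of the total-knockout fetal table lay above their KO libraries.

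Pbx2, a broadly expressed PBX gene, averaged 46.5 to 80.4 CPM in the 4 leukaemia groups and 17.9 to 25.3 CPM in the 6 HSC groups, with no overlap between the 2 sets. Pbx3, the PBX partner most often tied to HOXA9 in leukaemia, averaged 10.6 ± 9.21 CPM in KO+s, 166 ± 56.4 in KO+f, 185 ± 118 in KO+EV and 126 ± 14.6 in WT+EV cells (SD, n = 3 each). The KO+s libraries were within the 7.004 to 37.5 CPM that HSC libraries spanned, apart from 1 at 3.51 CPM.

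Loss of PRDM16 in MLL-AF9 cells was examined first, by comparing KO+EV with WT+EV. Pbx2 fell by 0.57 on the log2 scale, and no other member passed the test. This was 1 of 7 members, against 2.1% of all 12958 genes tested (0.903% higher and 1.2% lower in KO+EV). Pbx2 was 53.6, 46.1 and 39.7 CPM in KO+EV libraries, against 72.0, 61.2 and 76.7 CPM in WT+EV libraries. All 3 KO+EV libraries lay below all WT+EV libraries. The log2 change was -0.57 ± 0.13 (SE) with an adjusted p of 0.0450 by edgeR's quasi-likelihood test with Benjamini-Hochberg adjustment. The call sat at the threshold. It was lost without KO+EV library 1, 2 or 3 (adjusted p = 0.0522, 0.156 and 0.0778) and without WT+EV library 1 or 3 (0.1025 and 0.138), and the log2 change stayed between -0.66 and -0.50.

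Hoxa5 had 106, 114 and 59.7 CPM in KO+EV libraries, against 126, 181 and 174 CPM in WT+EV libraries. All KO+EV libraries were again the lower ones. Its log2 change of -0.78 ± 0.21 did not pass, with an adjusted p of 0.0865 by edgeR, while DESeq2 gave 0.0246. The CPM ranges of 2 of the 7 members did not overlap, both lower in KO+EV, as for 23.2% of all genes. Hoxa9 was 247, 259 and 149 CPM in KO+EV libraries, against 268, 234 and 216 CPM in WT+EV libraries. The groups overlapped, with a log2 change of -0.12 and a 95% interval of -0.48 to 0.24. For Meis1 the interval was -0.94 to 0.19, for Hoxa10 -0.24 to 0.98 and for Hoxa7 -0.56 to 0.22.

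Pbx3 had 256, 250 and 49.1 CPM in KO+EV libraries, against 117, 142 and 117 CPM in WT+EV libraries. Libraries 1 and 2 of KO+EV were above all WT+EV libraries and library 3 was below them all. The log2 change of 0.55 ± 0.61 had an adjusted p of 0.691. Without KO+EV library 3 it was 0.99 with an adjusted p of 0.345. Granulocyte markers moved in this comparison, since 4 of 8 fell and their summed level was 881 to 1027 CPM in KO+EV and 2941 to 10621 CPM in WT+EV libraries. Their part in the Pbx2 result was not tested.

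**Figure D3:**
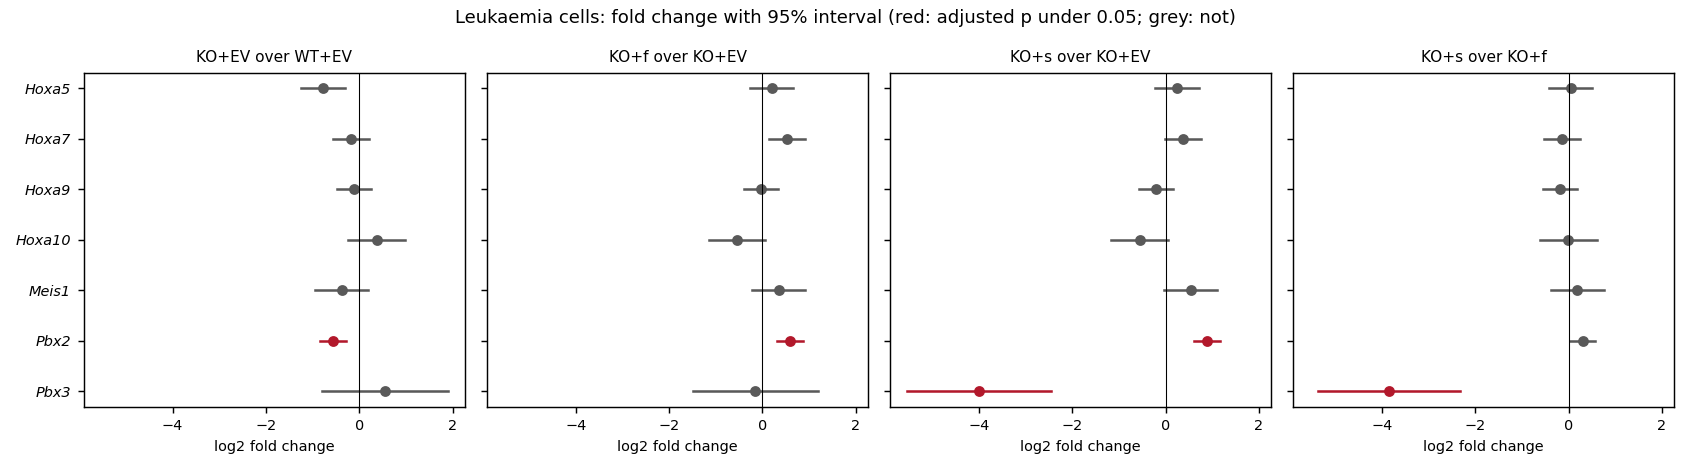
Log2 fold changes of the 7 genes (points) with 95% intervals (lines) in 4 leukaemia comparisons, with the first-named group over the second; red marks an adjusted p under 0.05. Pbx2 is lower in KO+EV and higher in KO+f and KO+s, and Pbx3 is lower in KO+s against both KO+EV and KO+f.

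Add-back of f-PRDM16 was tested by comparing KO+f with KO+EV. Pbx2 rose by 0.59 on the log2 scale and was the single member called, against 11.3% of all genes (6.88% higher and 4.39% lower in KO+f). It had 71.7, 74.4 and 66.6 CPM in KO+f libraries, against the 39.7 to 53.6 CPM of KO+EV. Every KO+f library was higher. The log2 change was 0.59 ± 0.13 with an adjusted p of 0.0156 (edgeR), 0.0614 without KO+EV library 2 and 0.0555 without KO+f library 2. Hoxa7 had 51.4, 47.9 and 37.9 CPM in KO+f libraries, against 31.5, 30.6 and 31.2 CPM in KO+EV libraries. Its groups did not overlap, yet the log2 change of 0.52 ± 0.18 missed the threshold with an adjusted p of 0.0787 in edgeR and passed in DESeq2 (0.0469) and without KO+f library 3 (0.0431). Ranges did not overlap for 2 members, both higher in KO+f, as for 34% of all genes. Markers of other cells moved beside Pbx2. Of the HSC markers tested, 3 of 5 rose, with all 9 summing to 267 to 511 CPM in KO+f and 143 to 311 CPM in KO+EV libraries. The macrophage sum was 233 to 366 CPM in KO+f and 101 to 213.5 CPM in KO+EV libraries, with 1 of 5 called, and the megakaryocyte sum 18.4 to 38.9 CPM against 1.62 to 10.5 CPM, also with 1 called, of 3. Of the erythroid markers 1 of 3 rose, at sums of 5.52 to 8.24 CPM in KO+f and 2.14 to 2.84 CPM in KO+EV libraries, while 0 of 8 granulocyte markers were called (edgeR). Their part in the Pbx2 result was likewise not tested.

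Hoxa9 and Meis1 did not pass with f-PRDM16. Hoxa9 was 226, 194 and 231 CPM in KO+f libraries, inside the 149 to 259 CPM of KO+EV, with a log2 interval of -0.38 to 0.34. Meis1 was 172, 139 and 164 CPM in KO+f libraries, against 156, 156 and 59.2 CPM in KO+EV libraries. KO+EV library 3 alone was far below the KO+f libraries. The log2 change of 0.35 ± 0.26 became 0.04 without that library. Hoxa10 had 197, 119 and 207 CPM in KO+f libraries, against 282, 340 and 136 CPM in KO+EV libraries. Its log2 change of -0.55 ± 0.28 was not called (adjusted p = 0.218), but without KO+EV library 3 it was -0.81 with an adjusted p of 0.0481. Pbx3 was 139, 128 and 231 CPM in KO+f libraries, inside the KO+EV range, with an adjusted p of 0.886. Hoxa5 was 127.5, 104.2 and 92 CPM in KO+f libraries, with a log2 change of 0.20 ± 0.21 and an adjusted p of 0.571.

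The PBX pair changed in opposite directions with s-PRDM16. In KO+s against KO+EV, Pbx2 rose and Pbx3 fell, which is 2 of 7 members against 32.4% of all genes (15.9% higher and 16.6% lower in KO+s). Pbx3 had 7.23, 3.51 and 21.0 CPM in KO+s libraries, against 256, 250 and 49.1 CPM in KO+EV libraries. Even the lowest KO+EV library was above the highest KO+s library. The log2 change was -3.999 ± 0.70 with a 95% interval of -5.53 to -2.46 and an adjusted p of 0.00204 (edgeR). Over the leave-one-out fits it ran from -4.98 to -3.56 and passed in all 6. Pbx2 had 89.2, 78.9 and 73.2 CPM in KO+s libraries, all above KO+EV. Its log2 change of 0.88 ± 0.13 had an adjusted p of 6.9e-04 and also passed in all 6.

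The remaining members did not pass with s-PRDM16. Hoxa9 was 181, 157 and 189 CPM in KO+s libraries, a log2 change of -0.21 ± 0.17. Hoxa5 was 105, 94.8 and 108 CPM, a log2 change of 0.24 ± 0.21. Hoxa10 was 162, 132 and 186 CPM, a log2 change of -0.55 ± 0.28. Without KO+EV library 3, Hoxa9 fell by 0.39 (adjusted p = 0.0478) and Hoxa10 fell by 0.83 (adjusted p = 0.0160) on the log2 scale, so that 1 library set those calls. Hoxa7 was 40.7, 41.5 and 31.9 CPM, above all KO+EV libraries, with an adjusted p of 0.129. Meis1 was 184, 155 and 160 CPM with a log2 change of 0.54 ± 0.26. Ranges did not overlap for 3 members, against 51.1% of all genes.

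The isoforms were set against each other by comparing KO+s with KO+f, whose Prdm16 levels overlapped (log2 difference -0.10 ± 0.22). Pbx3 was called, as were 3.81% of all genes (2.05% higher and 1.76% lower in KO+s). The 7.23, 3.51 and 21.0 CPM of KO+s libraries stood against 139, 128 and 231 CPM in KO+f libraries. The groups were far apart, with a log2 difference of -3.84 ± 0.69, a 95% interval of -5.37 to -2.32 and an adjusted p of 0.0179 (edgeR). The adjusted p was 0.0584 without KO+f library 3, 0.104 without KO+s library 1 and 0.0537 with no filter on low counts, while the log2 difference stayed at or below -3.42. Pbx2 was 0.30 ± 0.13 higher in KO+s on the log2 scale, with an adjusted p of 0.188. For the HOXA genes and Meis1 the 95% intervals of the log2 difference were -0.42 to 0.51 (Hoxa5), -0.54 to 0.24 (Hoxa7), -0.55 to 0.18 (Hoxa9), -0.61 to 0.60 (Hoxa10) and -0.38 to 0.75 (Meis1). Ranges did not overlap for Hoxa9 and Pbx3, both lower in KO+s, as for 33.6% of all genes.

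Granulocyte markers moved beside Pbx3. In KO+s against KO+f, 5 of 8 rose, and in KO+s against KO+EV, 6 of 8 rose. Their summed level was 5841 to 14557 CPM in KO+s, 947 to 1550 in KO+f, 881 to 1027 in KO+EV and 2941 to 10621 CPM in WT+EV libraries, with no marker at 0. Of the WT+EV libraries, only library 3 (10621 CPM) lay within the KO+s range, while libraries 1 and 2 (3390 and 2941 CPM) lay below it. Macrophage markers summed to 497 to 509.6 CPM in KO+s, above 233 to 366 in KO+f, 101 to 213.5 in KO+EV and 191.5 to 425 CPM in WT+EV libraries. Of 5 macrophage markers, 3 rose in KO+s against KO+EV and 1 against each of KO+f and WT+EV. Megakaryocyte markers rose in 3 of 3 in KO+s against KO+EV, at sums of 22.6 to 45.1 CPM in KO+s and 1.62 to 10.5 CPM in KO+EV, and so did 3 of 5 HSC markers, at 263 to 401 CPM in KO+s and 143 to 311 CPM in KO+EV. Fgd5, Mecom and Slamf1, defining HSC genes, were at 0 in at least 1 KO+s library. The part of these cells in the Pbx3 and Pbx2 results was not tested.

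Set against wild-type leukaemia, KO+f had 0 of 7 members called (edgeR), with 1 at an unadjusted p under 0.05 and 0 by DESeq2, against 9.97% of all genes (6.11% higher and 3.86% lower in KO+f). No member's range stood clear of WT+EV, against 31.5% of all genes. Pbx2 in KO+f had a log2 difference of 0.02 with a 95% interval of -0.26 to 0.29 from WT+EV. The member at an unadjusted p under 0.05 was Hoxa5, which averaged 108 CPM in KO+f and 160 CPM in WT+EV cells. Its log2 difference was -0.58 with a 95% interval of -1.04 to -0.11 (unadjusted p = 0.0195, adjusted p = 0.107, edgeR). In KO+s against WT+EV, Pbx3 fell by 3.45 ± 0.68 on the log2 scale (adjusted p = 0.00538, edgeR), 1 of 7 members against 23.7% of all genes (11.8% higher and 11.9% lower in KO+s). Hoxa5 was lower in every KO+s library, with a log2 difference of -0.53 ± 0.21 that did not pass (adjusted p = 0.0910). Ranges lay below WT+EV for 4 members, Hoxa5, Hoxa9, Hoxa10 and Pbx3, against 45.5% of all genes in either direction. The comparisons with KO+EV and WT+EV share libraries, so their values are not independent.

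Per exon base, the balance of Pbx2 and Pbx3 reads differed between the KO+s libraries and all others. Pbx3 gave 4.88 to 24.9% of the reads per base of Pbx2 and Pbx3 together in KO+s libraries. It gave 66.4 to 80.0% in KO+f, 58.8 to 86.2% in KO+EV and 63.9 to 72.9% in WT+EV libraries. Pbx2 was thus the larger of the pair in every KO+s library, at 75.1 to 95.1%, and the smaller in every other leukaemia library. The summed level of both genes per kilobase was 25.19 to 29.6 CPM in KO+s, against 67.28 to 101.0 in KO+f, 29.24 to 106.0 in KO+EV and 62.78 to 68.48 in WT+EV libraries. In sorted HSCs, Pbx2 gave 39.4 to 67.0% in KO and 41.0 to 64.5% in WT bone marrow, and Pbx3 the rest. In fetal liver the Pbx3 share was 60.1 to 68.1% in total-knockout HSCs against 64.5 to 70.4% in their controls, and 26.3 to 32.8% in f-PRDM16-knockout HSCs against 30.6 to 44.9% in theirs.

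**Figure D4:**
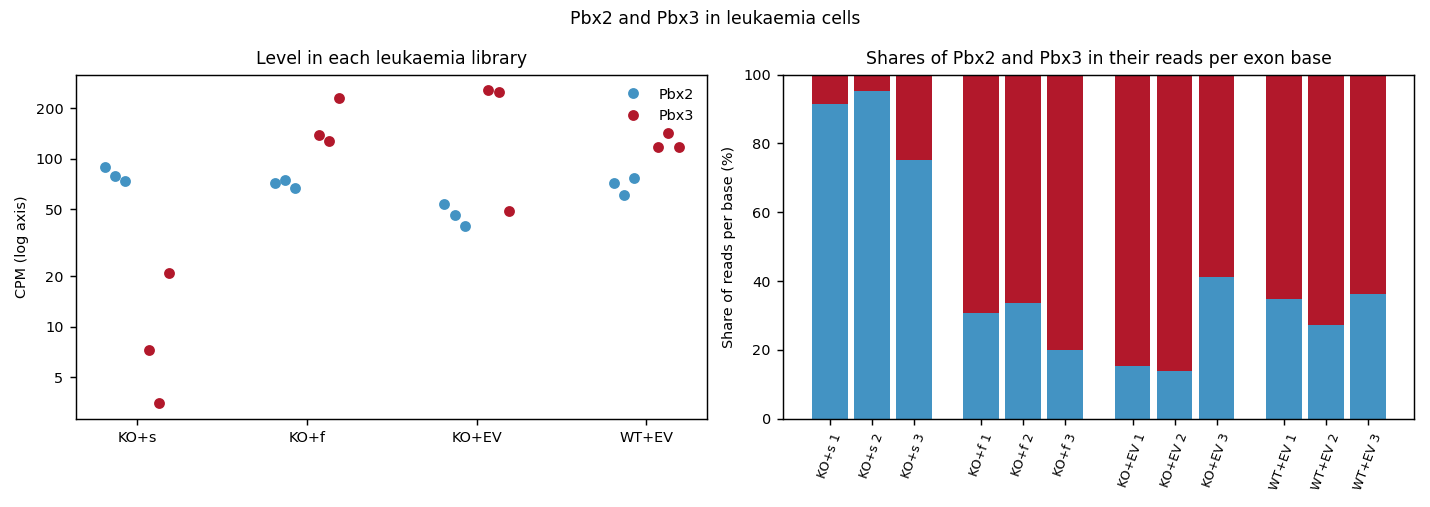
Left, CPM (log axis) of Pbx2 and Pbx3 in each leukaemia library by group; right, the share of each gene in their summed reads per exon base, with 1 bar per library. Pbx3 gives 4.88 to 24.9% in KO+s libraries and at least 58.8% in every other leukaemia library.

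Other genes of the TALE class and a PBX-binding protein were read from a list of 8, chosen with results of these data known, of which 6 were tested in leukaemia. Of these, 1 rose and 1 fell in KO+s against KO+EV, 2 of 6 against the 32.4% of all genes called there, so the share was near the background. Both calls held without any 1 library. Pknox1, a MEIS-related PBX partner, was 124, 118 and 113 CPM in KO+s libraries, against 66.0, 69.9 and 87.0 CPM in KO+EV libraries. All KO+s libraries were higher, with a log2 change of 0.75 ± 0.17 (adjusted p = 0.00687). Meis3, a paralogue of Meis1, had 7 reads over the KO+s libraries and 47 over the KO+EV libraries, a CPM ratio of 0.140 with a counting interval of 0.0533 to 0.311. It fell with an adjusted p of 0.0125. With so few KO+s reads, Meis3 passed the count filter through the groups where it was higher. Its falls in KO+s, and the counts that include them, are therefore a description. In KO+f against KO+EV, 0 of 6 were called (edgeR), with 0 at an unadjusted p under 0.05 and 0 by DESeq2. Between KO+s and KO+f, 0 of 6 were called (edgeR), with 3 at an unadjusted p under 0.05 and 2 by DESeq2. In KO+f against WT+EV, 2 of 6 rose, against 6.11% of all genes, namely Pbx4 and Tgif1, a TALE repressor of TGF-beta signalling. Tgif1 had a log2 change of 2.57 ± 0.60 (adjusted p = 0.0235) and Pbx4 of 1.202 ± 0.29 (adjusted p = 0.0249), and each of these 2 calls was lost in 4 of the 6 fits that leave out a library, with an adjusted p of at most 0.0808 for Tgif1 and 0.0921 for Pbx4. Meis3 was the 1 of 6 that passed in KO+s against WT+EV, where 23.7% of all genes did, and it fell by 3.36 ± 0.69 on the log2 scale (adjusted p = 0.00553). In KO+EV against WT+EV, 0 of 6 were called (edgeR), with 2 at an unadjusted p under 0.05 and 1 by DESeq2.

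The HOX genes outside the 7 were a list of 35, of which 12 passed the filter in leukaemia. A filter on counts keeps low genes through the groups where they are high, so the counts that follow lean towards rises in those groups and are a description. With the empty vector, KO+EV against WT+EV, 0 of 12 were called by edgeR, with 2 at an unadjusted p under 0.05 and 1 by DESeq2. Adding f-PRDM16, KO+f against KO+EV, 4 of the 12 rose and 0 fell, against 6.88% of all genes higher and 4.39% lower. With s-PRDM16, KO+s against KO+EV, 6 rose and 1 fell, against 15.9% of all genes higher and 16.6% lower. The genes that rose with both isoforms were Hoxb3 of the HOXB cluster and Hoxc4, Hoxc5 and Hoxc6 of the HOXC cluster, all at low levels. Hoxa2 and Hoxb4 also passed with s-PRDM16.

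Hoxa2, an anterior gene of the HOXA cluster, was 13.6, 9.87 and 10.1 CPM in KO+s libraries, against 6.07, 7.135 and 1.76 CPM in KO+EV libraries. All KO+s libraries were higher, with a log2 change of 1.28 ± 0.38 (adjusted p = 0.0250, and 0.0938 without KO+s library 1), and the gene was named after its values were seen. In WT+EV libraries it was 7.22, 10.6 and 10.7 CPM, overlapping KO+s.

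Hoxc6 was 7.19, 3.41 and 6.85 CPM in KO+s and 4.29, 4.36 and 0.229 CPM in KO+f libraries. It had 0, 0 and 3 reads in KO+EV libraries and 0 reads in all WT+EV libraries. The KO+s over KO+EV CPM ratio was 119 with a counting interval of 40.5 to 581 (adjusted p = 0.00430), and KO+f over KO+EV was 58.1 with an interval of 19.6 to 284 (adjusted p = 0.0247). All 3 KO+EV reads lay in library 3, and without it the fitted log2 change was 9.97 in place of 6.78 for KO+s and 8.88 in place of 5.69 for KO+f, values set against 0 reads. The KO+f call was lost without KO+EV library 1 or 2 (0.0616 and 0.0844) and without KO+f library 1 or 2 (0.0638 and 0.07005). Hoxc5 had 70 reads in KO+s, 49 in KO+f and 0 in KO+EV libraries. That is at least 21.9-fold higher in KO+s and at least 15.8-fold higher in KO+f, counting KO+EV as 3 reads over the group. Hoxc4 had 85 reads in KO+s, 59 in KO+f and 5 in KO+EV libraries. Hoxb3 was 5.93, 5.95 and 3.93 CPM in KO+s, 6.90, 2.23 and 2.24 CPM in KO+f and 0.211, 0.238 and 1.22 CPM in KO+EV libraries. The groups with an added isoform lay above KO+EV for each of these genes. The Hoxb3 call in KO+f (adjusted p = 0.0417) was lost without KO+EV library 1 or 2 (0.09925 and 0.129) and without KO+f library 1 or 2 (0.145 and 0.0597), while the KO+s calls of all 4 genes and the KO+f calls of Hoxc4 and Hoxc5 held.

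Hoxb4, known for expanding HSCs when overexpressed, rose in KO+s against KO+EV with a log2 change of 1.77 ± 0.48 (adjusted p = 0.0152), at 9.04, 9.46 and 5.51 CPM in KO+s and 2.27, 1.24 and 3.82 CPM in KO+EV libraries. The adjusted p was 0.0528 without KO+EV library 2 and 0.0501 without KO+s library 1. Hoxb13, a posterior HOXB gene, fell, with 9 reads over the KO+s libraries and 284 over the KO+EV libraries, a CPM ratio of 0.0298 with a counting interval of 0.0135 to 0.0573 (adjusted p = 0.00469). Between the isoforms 0 of 12 were called by edgeR, with 1 at an unadjusted p under 0.05 and 1 by DESeq2. In KO+f against WT+EV 4 of 12 rose, against 6.11% of all genes, namely Hoxb4, Hoxc4, Hoxc5 and Hoxc6. Against WT+EV, KO+s had 5 of 12 that rose and 3 that fell, against 11.8% and 11.9% of all genes, and besides Hoxb13 those that fell were the members' neighbours Hoxa4 (log2 change -0.85 ± 0.28, adjusted p = 0.0457) and Hoxa6 (-0.77 ± 0.23, adjusted p = 0.0310), named after their values were seen. These 2 calls were lost in 5 of the 6 fits that leave out a library, with an adjusted p of at most 0.167 for Hoxa4 and 0.119 for Hoxa6. The KO+f calls of Hoxb4 and Hoxc5 against WT+EV were lost in 5 of 6 such fits each (at most 0.0829 and 0.0864), and that of Hoxc6 without WT+EV library 3 (0.0526).

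Genes reported elsewhere as HOXA9 or MEIS1 targets formed a list of 17, of which 16 were tested in leukaemia. The comparison of KO+s with KO+EV had 7 that rose and 0 that fell, against 15.9% of all genes higher and 16.6% lower. The median log2 change was 0.68 over the 16 and -0.00905 over all genes. The anti-apoptotic gene Bcl2 was 50.4, 115 and 47.7 CPM in KO+s libraries, against 18.6, 14.5 and 6.62 CPM in KO+EV libraries. All KO+s libraries were higher, with a log2 change of 2.53 ± 0.50 (adjusted p = 0.00392). Lmo2, a haematopoietic transcriptional cofactor, was 1002, 916 and 935 CPM in KO+s libraries, against 361, 308 and 420 CPM in KO+EV libraries. Its log2 change was 1.47 ± 0.29 (adjusted p = 0.00320). Id2, a repressor of differentiation factors, changed by 1.91 ± 0.41, the kinase gene Syk by 0.56 ± 0.13, the stem cell antigen gene Cd34 by 3.56 ± 1.11 and the chemokine gene Ccl4 by 1.36 ± 0.47 on the log2 scale, all upward with adjusted p between 0.00523 and 0.0438. The calls of Bcl2, Lmo2, Id2 and Syk held without any 1 library. Cd34 was lost without KO+EV library 2 or 3 (0.1001 and 0.0715) or KO+s library 2 (0.0978), and Ccl4 in 4 of 6 such fits (at most 0.152).

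In KO+f against KO+EV, Bcl2 rose by 2.71 ± 0.51 (adjusted p = 0.00957) and Lmo2 rose by 0.97 ± 0.28 (adjusted p = 0.0489) on the log2 scale, 2 of 16 against 6.88% of all genes. The Bcl2 call held without any 1 library, and the Lmo2 call was lost without KO+EV library 1 or 2 (0.102 and 0.148) and without KO+f library 1 or 2 (0.145 and 0.132). Bcl2 also rose in KO+f against WT+EV, as 1 of 16 against 6.11% of all genes (adjusted p = 0.0391, and 0.0612 to 0.116 in the 5 of 6 such fits that lost it). Against WT+EV, KO+s had 5 of 16 that rose, against 11.8% of all genes, namely Id2, Hif1a, Lmo2, Bcl2 and Sox4, and each call was lost in at least 1 such fit. In KO+EV against WT+EV the single call of 16, against 0.903% of all genes higher, was Hif1a, the hypoxia regulator, which rose by 0.75 ± 0.15 (adjusted p = 0.0307), and was lost without KO+EV library 1 or 2 (0.0556 and 0.109) and without WT+EV library 1 or 3 (0.0543 and 0.0623).

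In sorted HSCs, none of the 7 members passed in any of the 3 knockout comparisons. The count was 0 of 7 in bone marrow, in total-knockout and in f-PRDM16-knockout fetal liver, against 0% of all genes in each by edgeR. At an unadjusted p under 0.05 it was also 0 of 7 in all 3, and DESeq2 called 0 of 7 in all 3, with 38 genes higher and 48 lower overall in bone marrow, 43 and 27 in total-knockout and 0 and 4 in f-PRDM16-knockout fetal liver. Same-numbered fetal libraries varied together, and with that number as a block 0 of 7 members were called in either fetal table, against 1.13% of all genes in the total knockout (0.526% higher and 0.603% lower) and 0% in the f-PRDM16 knockout. The estimates were nonetheless mostly negative. In total-knockout fetal liver 6 of 7 were below 0, with a median of -0.18 against -6.2e-04 over all genes, and in f-PRDM16-knockout fetal liver 6 of 7, with a median of -0.44 against -0.01. In bone marrow 5 of 7 were below 0, with a median of -0.26 against -0.03.

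Among the fetal liver estimates, that of Meis1 was the largest in the f-PRDM16 knockout and that of Hoxa5 in the total knockout. In f-PRDM16-knockout HSCs Meis1 was 82.9, 129 and 67.7 CPM, against 104.5, 242 and 155 CPM in WT HSCs. Each KO library was below the WT library of the same number, while the groups overlapped. The log2 change was -0.75 ± 0.32 with a 95% interval of -1.52 to 0.01 and an adjusted p of 0.999 (edgeR). With the replicate number as a block it was -0.73 ± 0.15, with an unadjusted p of 0.00265 and an adjusted p of 0.238, still not called. In total-knockout fetal liver Meis1 was 196, 185 and 129 CPM in KO HSCs, against 219, 216 and 213 CPM in WT HSCs. All KO libraries were lower, and the log2 change of -0.31 ± 0.15 had an adjusted p near 1 (-0.33 ± 0.10 blocked, with an unadjusted p of 0.0127 and an adjusted p of 0.199). In bone marrow Meis1 was 512 to 671 CPM in KO and 376 to 675 CPM in WT HSCs, with a log2 change of 0.18 ± 0.19.

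The HOXA genes gave small negative estimates in the fetal tables. Hoxa5 was 5.31, 4.70 and 4.23 CPM in total-KO HSCs, against 6.03, 7.12 and 6.41 CPM in WT HSCs. The groups did not overlap, with a log2 change of -0.42 ± 0.19. Hoxa9 was 32.4, 28.8 and 27.9 CPM in total-KO HSCs, against 34.5, 32.95 and 34.3 CPM in WT HSCs, also without overlap and with a log2 change of -0.15 ± 0.11. Together with Meis1 that made 3 of 7 members lying below WT, against 11% of all genes in either direction. For the f-PRDM16 knockout the log2 changes were -0.64 ± 0.38 (Hoxa5), -0.36 ± 0.22 (Hoxa7), -0.44 ± 0.23 (Hoxa9) and -0.60 ± 0.35 (Hoxa10), and every member's range overlapped with WT, against 7.31% of all genes that did not. With the block, 5 of 7 members there had an unadjusted p under 0.05, Hoxa5, Hoxa7, Hoxa9, Hoxa10 and Meis1, against 12.6% of all genes, and none passed adjustment. In the total knockout the blocked count was 1 of 7, Meis1, against 14.4% of all genes.

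The bone marrow values of Hoxa5 were 19.3, 13.2, 19.96 and 13.9 CPM in KO libraries, against 31.6, 34.9, 20.04 and 13.1 CPM in WT libraries. WT libraries 1 and 2 were the high ones. The log2 change was -0.58 ± 0.30, and no member's range was clear of the other group, against 5.82% of all genes. Pbx2 had 15.8, 15.6, 26.5 and 21.1 CPM in KO marrow, against 23.5, 33.5, 19.96 and 24.3 CPM in WT marrow, with a log2 change of -0.36 ± 0.24. In fetal liver Pbx2 was the 1 member with positive estimates, 0.17 ± 0.15 in the total and 0.17 ± 0.20 in the f-PRDM16 knockout. Pbx3, which fell in KO+s leukaemia, was 30.3, 34.1 and 22.8 CPM in total-KO HSCs, against 37.5, 29.3 and 27.8 CPM in WT HSCs. In HSCs that keep s-PRDM16 without f-PRDM16 it was 7.004, 8.54 and 11.8 CPM, against 8.72, 14.9 and 14.0 CPM in their WT HSCs, with a log2 change of -0.36 and a 95% interval of -1.08 to 0.37.

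**Figure D5:**
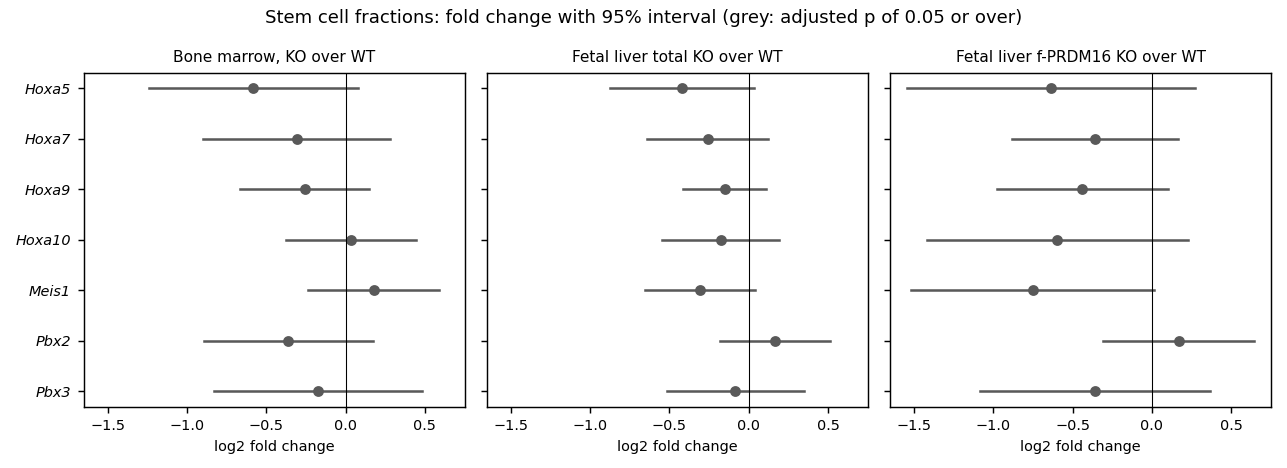
Log2 fold changes of the 7 genes (points) with 95% intervals (lines), KO over WT, in the 3 sorted HSC tables; grey marks an adjusted p of 0.05 or over. Every interval includes 0, and 6 of 7 points lie below 0 in each fetal liver panel.

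Marker genes of other cells moved in the same fetal tables. The granulocyte sum was 478 to 6185 CPM in total-KO and 76.5 to 690 CPM in WT HSCs, with 0 of 8 markers called by edgeR and a median log2 change of 3.03. Of these 8, 4 had an unadjusted p under 0.05 (edgeR) and DESeq2 called 1. Macrophage markers summed to 44.67 to 51.44 CPM in total-KO and 35.45 to 45.57 CPM in WT HSCs. By edgeR 0 of 4 were called, with 3 at an unadjusted p under 0.05, and DESeq2 called 2 of 5. HSC markers summed to 1115 to 1289 CPM in total-KO and 1290 to 1659 CPM in WT HSCs, without overlap and with a median log2 change of -0.41 over 9 markers, none of them called by edgeR. Mast cell or basophil markers summed to 55.3 to 93.8 CPM in total-KO and 22.65 to 49.97 CPM in WT HSCs, also apart. Cd48, whose product was used to gate out cells, was 21.8 to 31.1 CPM in total-KO and 12.8 to 18.0 CPM in WT HSCs. It was higher in the f-PRDM16 table, at 54.99 to 181.5 CPM in KO and 23.05 to 161.5 CPM in WT HSCs. The highest leukaemia library had 115.1 CPM of Cd48. Mpo in the f-PRDM16 table reached 24034 CPM in KO and 9868 CPM in WT HSCs, both in library 3. In the f-PRDM16 table the granulocyte sum was 1087 to 15779 CPM in KO and 1027 to 7789 CPM in WT HSCs, and HSC markers, which overlapped there, summed to 1005 to 1395 CPM in KO and 1279 to 2459 CPM in WT HSCs. Their part in the Meis1 and HOXA estimates was not tested. Erythroid markers summed to 1153 to 1859 CPM in the total-knockout table and to at most 42.5 CPM in the f-PRDM16-knockout table. Of these markers, the globin genes Hba-a1 and Hbb-b1 had 0 reads in every library of the f-PRDM16-knockout table. Both had reads in every library of the total-knockout table, so the sums are not comparable between these tables.

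Whether the knockout effect differed between HSC sources was tested in a joint fit of the 20 HSC libraries. The f-PRDM16 effect minus the total-knockout effect in fetal liver was called for 0 of 7 members (0% of all genes), and the bone marrow effect minus the total-knockout fetal effect for 0 of 7 (0.0123% of all genes, 0.00617% in each direction), with 0 members at an unadjusted p under 0.05 in each. For Meis1 these differences were -0.46 ± 0.36 and 0.48 ± 0.34 on the log2 scale. In simulated data these tests recovered 7% and 19% of 2-fold differences, in the same order, so most differences of that size would be missed.

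The genes whose levels followed a member most closely over the 12 leukaemia libraries were listed as a description, since the libraries share groups and the library that stands apart. Among 8772 expressed genes, Pbx3 was closest to Cgnl1 (Pearson's r = 0.962), Clec4d, Mrpl52, Calcrl and Grap, the last at 0.936. Meis1 was closest to Timp2 (0.964), Sfr1, Pitpnm1, Abr and Shoc2 (0.940). Hoxa9 was closest to P2rx1 (0.912), Ostm1, Adamtsl4, Slc15a3 and Zbtb4 (0.891). Among the members themselves, the highest value was 0.738 between Hoxa9 and Hoxa10, and the lowest was -0.589 between Pbx2 and Pbx3.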

How the data were processed

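Counts of reads per gene were used as deposited in 4 tables, with columns matched to groups per the labels (0 unmatched). The submitters' processing notes name bcl2fastq 2.17, TopHat, DESeq and the build mm9; the counting tool, annotation and strand are not given in the sources used here. Libraries were TruSeq poly-A, with a SMARTer low-input step for HSCs, per the labels. None of 124 pairs of libraries within a table agreed within sampling noise (lowest chi-square per degree of freedom 11.6).

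CPM is the count over all gene counts of the library. Levels per kilobase used exon lengths of GENCODE vM21, another build than the authors'. The 12 leukaemia libraries shared 1 fit and every HSC table had its own, with edgeR 4.0.16 (R 4.3.3). Low counts were removed by filterByExpr, libraries were scaled by TMM, and the robust quasi-likelihood test (two-sided) was adjusted by Benjamini-Hochberg over all genes tested, at a threshold of 0.05. All adjusted p-values are from edgeR unless DESeq2 1.42.0 is named. Errors after ± are SE for log2 changes and SD for CPM. Counting intervals are exact 95% binomial and, like the floor of 3 reads, cover counting error only. The labels do not say whether leukaemia replicates were separate transductions, so a p-value reflects only how these samples spread, which may be technical. Python 3.11.15, pandas 2.3.3, scipy 1.17.1 and matplotlib 3.10.9 were used for levels and figures.

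The 7 members and all gene lists were chosen with earlier results of these data known, so no list serves as independent support. All 7 members were tested in every comparison, and any not named in one did not pass there. At most 6 passing genes of each related list were to be named, those with the smallest adjusted p. The 5 genes most correlated with Hoxa9, Meis1 and Pbx3 were taken among those with a mean log2 CPM of at least 3. Hoxa2, Hoxa4, Hoxa6, Hoxa11 and Hoxa13 were named after their values were seen. Alternatives were RLE scaling, no filter, a replicate block, DESeq2, the 2 groups alone and leaving out each library.

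Labels give replicate numbers but no pairing. Deviations from group means of same-numbered libraries correlated at 0.202 to 0.626 in total-knockout and 0.351 to 0.624 in f-PRDM16-knockout fetal liver, so blocked values are given there. Simulated data with 200 genes changed gave recovery at 2-fold and 4-fold of 62 and 96% (KO+EV against WT+EV), 74 and 99% (KO+f against KO+EV), 56 and 97% (KO+s against KO+EV), 79 and 97% (KO+s against KO+f), 60 and 98% (bone marrow), 58 and 94% (total-knockout fetal liver) and 22 and 84% (f-PRDM16 knockout). In the joint fit, recovery was 7 and 72% for the f-PRDM16 minus total-knockout effect. It was 19 and 73% for the bone marrow minus total-knockout fetal effect.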

Additional observations from a re-analysis of the deposited data

Results flagged for a closer look

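The difference between the isoforms in leukaemia was called for Pbx3, at -3.84 on the log2 scale for the s-PRDM16 effect minus the f-PRDM16 effect (adjusted p = 0.0179 by edgeR's quasi-likelihood test). It was lower in KO+s in 3 of 3 libraries against each of the 3 KO+f libraries. No bone marrow library lay far enough from the rest of its group, for any member, to pass Dixon's critical value for 4 samples in the 14 groups checked, where chance alone would flag about 1 in 20.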

How the results depend on the processing

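The count of members called in leukaemia moved in 5 of the 6 comparisons, and the cause was not tested. In KO+EV against WT+EV it was 1, and 0 with no filter on low counts, with the replicate block or with the 2 groups alone, 2 by DESeq2, and 0 to 1 when 1 library was left out. In KO+f against KO+EV it was 1, and 2 by DESeq2, 0 with the 2 groups alone and 0 to 2 when 1 library was left out. In KO+s against KO+EV it was 2, and 2 to 4 when 1 library was left out. In KO+s against KO+f it was 1, and 0 with no filter and 0 to 1 when 1 library was left out. In KO+s against WT+EV it was 1, and 2 with the 2 groups alone. Over all genes, KO+EV against WT+EV had 272 calls, 1 with the 2 groups alone and 439 higher with 475 lower by DESeq2. In fetal liver the block changed no member's call. Among the related genes, calls were also lost as follows, by adjusted p. With no filter these were Lmo2 in KO+f against KO+EV (0.0598), Ccl4 (0.0626) and Cd34 (0.0922) in KO+s against KO+EV, Hoxa4 (0.0725), Bcl2 (0.0782) and Sox4 (0.0879) in KO+s against WT+EV, and Bcl2 (0.0920) and Tgif1 (0.0557) in KO+f against WT+EV. With the replicate block they were Lmo2 (0.0605), Hoxb3 (0.0675) and Hoxc6 (0.0576) in KO+f against KO+EV, Ccl4 in KO+s against KO+EV (0.0521) and Hoxa4 in KO+s against WT+EV (0.0697). With the 2 groups alone they were Lmo2 (0.1103) and Hoxb3 (0.123) in KO+f against KO+EV, Hoxa2 in KO+s against KO+EV (0.0783), Pbx4 in KO+f against WT+EV (0.0563) and Hif1a in KO+EV against WT+EV (0.124).

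A change of sign occurred in values near 0. Prdm16 in bone marrow was 0.060 with the replicate block, and the Pbx2 difference between the fetal knockouts was 0.0209 with RLE scaling. Leaving out 1 library gave these lowest and highest log2 values. KO+EV against WT+EV had Hoxa9 at -0.24 to 0.0595. KO+f against KO+EV had Hoxa5 at -0.0038 to 0.35, Hoxa9 at -0.20 to 0.0946 and Pbx3 at -0.59 to 0.14. KO+s against KO+f had Hoxa5 at -0.0634 to 0.19, Hoxa10 at -0.22 to 0.13 and Prdm16 at -0.31 to 0.0791. KO+f against WT+EV had Hoxa10 at -0.31 to 0.0510, Meis1 at -0.10 to 0.0754 and Pbx2 at -0.0635 to 0.0996. Bone marrow had Hoxa10 at -0.0892 to 0.15, Pbx3 at -0.34 to 0.10 and Prdm16 at -0.32 to 0.35, and total-knockout fetal liver had Pbx3 at -0.20 to 0.0583. The f-PRDM16 minus total-knockout effect had Hoxa5 at -0.46 to 1.112e-05, Hoxa7 at -0.31 to 0.0603 and Pbx2 at -0.13 to 0.12. The bone marrow minus total-knockout fetal effect had Hoxa5 at -0.36 to 0.0573, Hoxa7 at -0.22 to 0.17, Hoxa9 at -0.23 to 0.0344 and Pbx3 at -0.25 to 0.17. The lower Prdm16 in KO+EV had an adjusted p of 0.0349 to 0.0818 in such fits.

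With 3 or 4 libraries a group, 2-fold changes are often missed, most of all in the f-PRDM16-knockout table, where 22% of simulated ones were recovered. Levels were compared between separately deposited tables. Gene-level counts do not separate the PRDM16 forms.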
